A study of Oryza sativa with 4 samples.

Results

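Shared nucleosomes whose fuzziness differed by at least 8 between WT and *oschz1-1* numbered 132650, out of 1690300 nucleosomes listed in the map of the rice genome. They were chosen by the measured values themselves. Each lay on chromosomes 1 to 12, had a summit (the position of highest occupancy) in both genotypes, a summit occupancy of at least 10 in both, and a fuzziness score in *oschz1-1* that was at least 8 above or below that in WT. The 1114265 nucleosomes that met all conditions but the last are called eligible here, and 11.9% of them were members. Another 1846 nucleosomes with a summit in both genotypes on these chromosomes were left out for an occupancy under 10. The members were divided into 68947 rises, with the higher score in *oschz1-1* (6.19% of the eligible nucleosomes), and 63703 falls (5.72%). These shares are set by the rule, and the same rule left 981615 other eligible nucleosomes, against which the members are described.

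The values came from MNase-seq of 30-day-old rice seedlings kept in long days (14 h at 30 °C) with nights at 28 °C (10 h). Each genotype, WT and *oschz1-1*, had 2 libraries. The mutant, labelled oschz1, carries a CRISPR/Cas9 knockout of *OsChz1* and was the single mutant line profiled. Each nucleosome carried a single value per genotype, made by the authors from its merged libraries, and the number of reads behind it is unknown. The control columns of the table were taken as WT and the treated columns as the mutant, from the direction of the study's comparison, as no sample label states it. If they were exchanged, every rise would be a fall and every direction below would be reversed. No difference could therefore be set against the spread between replicates, no test was made, and every comparison below is a description of these 2 merged maps. Because occupancy, position and neighbours come from the same maps as the rule, none of them is independent evidence of a change in fuzziness.

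A nucleosome is DNA wrapped around an octamer of histones, and micrococcal nuclease digests the linker DNA between nucleosomes. Fuzziness describes how widely the protected fragments of a cell population scatter around a summit. A low score stands for a nucleosome held at nearly the same place in most cells, and a high score for one that takes several overlapping places. OsChz1 is a histone chaperone for H2A-H2B and H2A.Z-H2B dimers. In yeast, Chz1 is a chaperone of the variant H2A.Z, which is exchanged into nucleosomes by the SWR1 remodelling complex.

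Rises began as well-positioned nucleosomes and falls began as fuzzy ones. The median WT fuzziness was 46.6 in rises, 57.3 in falls and 53.1 in the other eligible nucleosomes. In *oschz1-1* the order was exchanged, with a median of 57.0 in rises, 46.9 in falls and 53.1 in the others. The scores of rises in WT were thus close to those of falls in *oschz1-1*, and the sets were near mirror images. Part of this follows from the rule, since a nucleosome can gain 8 units most readily from a low score. In the lowest decile of WT fuzziness (scores up to 44.8), 21.8% of the eligible nucleosomes were rises and 0.946% were falls. In the highest decile (from 58.5), 0.0467% were rises and 21.7% were falls. The median change was 9.80 in rises and -9.76 in falls, so that most members lay close to the limit. The change reached at least 12 in 13516 rises and 12039 falls, at least 16 in 2094 rises and 1639 falls, and at least 20 in 284 rises and 198 falls.

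**Figure D1:**
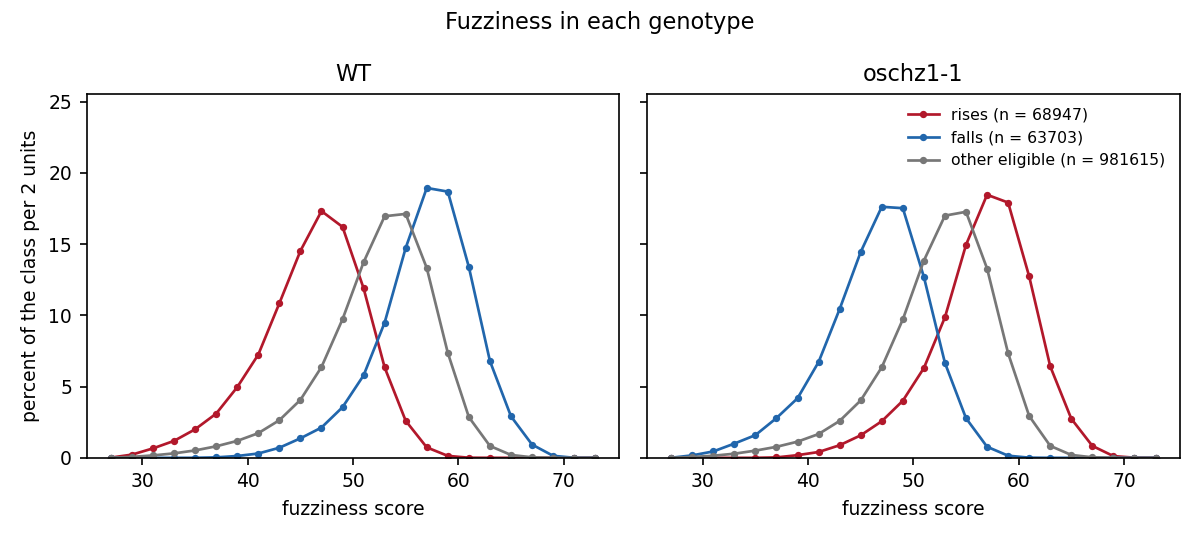
Distribution of the fuzziness score (x axis, bins of 2 score units) in WT (left) and *oschz1-1* (right), as percent of rises, falls and other eligible nucleosomes. The curve of rises lies left of the others in WT (median 46.6) and right of them in *oschz1-1* (median 57.0), and that of falls does the reverse.

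Next to the limit, the sizes of the changes were nearly the same on either side of it, as the rule fixes. The 3 rises just inside had changes just over 8 units, from 42.7 to 50.7 on chromosome 10 (WT summit at 11488071), from 44.4 to 52.4 on chromosome 3 (30986481) and from 43.0 to 51.0 on chromosome 1 (29043351). The 3 eligible nucleosomes just below the limit, which were left out, had changes just under 8 units. They went from 59.2 to 67.2 on chromosome 3 (18902291), from 50.8 to 58.8 on chromosome 7 (10854241) and from 50.4 to 58.4 on chromosome 2 (16126821). For falls, the 3 just inside went from 36.8 to 28.8, from 59.0 to 51.0 and from 53.9 to 45.9, and the 3 just outside from 44.2 to 36.2, from 59.8 to 51.8 and from 62.4 to 54.4. The named rises just inside began at lower WT scores than those just outside, and the WT scores of the named falls overlapped. Only 3 nucleosomes are named on each side, so these scores do not describe the nucleosomes near the limit at large.

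Summit occupancy, the authors' scaled signal at the summit, went the opposite way to fuzziness. Among rises, the median occupancy was 19.4 in WT and 13.9 in *oschz1-1*, and the *oschz1-1* value was the lower in 56753 of them (82.3%). Among falls, it was 14.0 in WT and 19.4 in *oschz1-1*, and the *oschz1-1* value was the higher in 52391 (82.2%). In the other eligible nucleosomes it was 17.4 in WT and 17.3 in *oschz1-1*, with a lower value in *oschz1-1* in 50.4%. On the log2 scale with a pseudocount of 1, the median ratio of *oschz1-1* to WT was -0.40 in rises, 0.40 in falls and -0.0038 in the others. The middle 50% of rises lay between -0.69 and -0.11, and that of falls between 0.11 and 0.68. Members were thus taller in the genotype in which they were sharper. Sharp nucleosomes were also the taller within WT alone, where fuzziness and occupancy had a Pearson's r of -0.37 over all eligible nucleosomes. In the lowest quartile of WT fuzziness (up to 49.1), the median WT occupancy was 19.7 in rises, 17.4 in falls and 20.0 in the others. In the highest quartile it was 17.6, 13.2 and 15.0. The mean of both genotypes hardly set members apart, with a median of 16.9 in rises, 16.9 in falls and 17.5 in the others.

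An occupancy at least 2-fold lower in *oschz1-1* was found in 6639 rises (9.63%) and 79 falls (0.124%), where 1.78% of all eligible nucleosomes had it. An occupancy at least 2-fold higher was found in 70 rises (0.102%) and 5791 falls (9.09%), where 1.58% of all eligible nucleosomes had it. Most members therefore kept their summit occupancy within a factor of 2. These counts are bounded by the occupancy minimum of 10 in both genotypes, which removes nucleosomes that nearly vanish in either map. The relation was graded for changes of up to 16 units in size. The median log2 ratio was -0.09 for changes of 0 to 4 units, -0.25 for 4 to 8, -0.38 for 8 to 12 and -0.48 for 12 to 16. On the side of lower fuzziness it was 0.08, 0.25, 0.38 and 0.47 for the same sizes. Beyond 16 units the medians were -0.48 and 0.50, little different from those at 12 to 16 units. There the median occupancy in the fuzzier genotype, 12.6 in rises and 12.5 in falls, lay near the minimum of 10. Across all 1114265 eligible nucleosomes, which share the same merged libraries, the change of fuzziness and the log2 ratio had a Pearson's r of -0.46 and a Spearman's rho of -0.45. Within rises alone r was -0.11 and within falls -0.11. The limit of 8 and the occupancy minimum of 10 narrow the range of both measures within members. These values therefore cannot be set against that over all eligible nucleosomes.

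**Figure D2:**
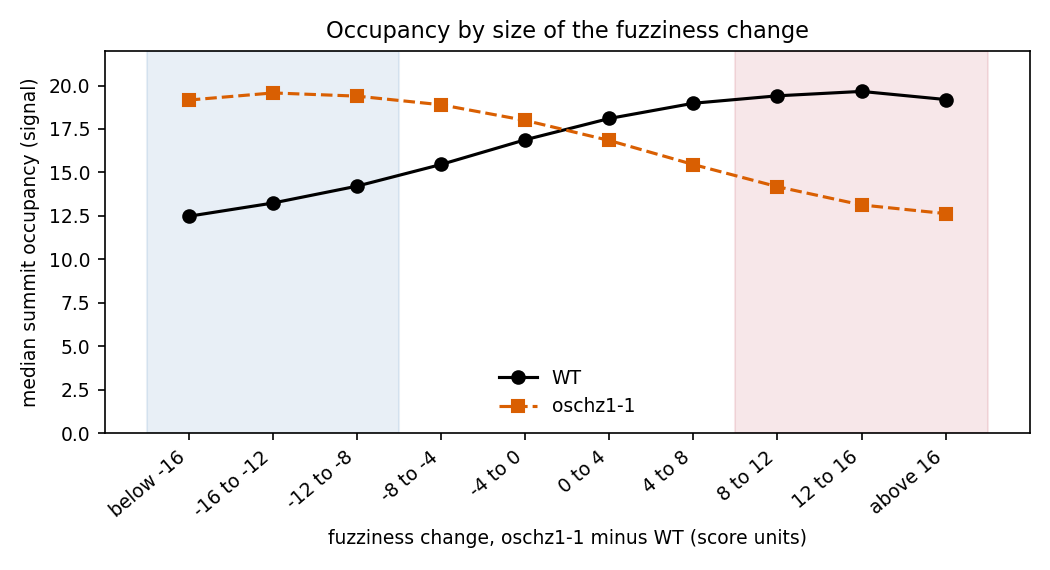
Median summit occupancy (y axis, the authors' scaled signal) in WT (circles) and *oschz1-1* (squares) by the change of fuzziness from WT to *oschz1-1* (x axis, score units), with falls shaded blue and rises shaded red. The lines cross near 0 and lie well apart in the shaded classes, with 19.4 in WT and 14.2 in *oschz1-1* for rises of 8 to 12 units and 14.2 and 19.4 for falls of that size.

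The summits of members were displaced more often than those of other nucleosomes, and about equally often in either direction along the chromosome. The median distance between the WT and the *oschz1-1* summit was 30 bp in rises, 30 bp in falls and 20 bp in the other eligible nucleosomes. No eligible nucleosome had summits more than 99 bp apart, so a longer move cannot appear in these values. A displacement of at least 50 bp was found in 18332 rises (26.6%) and 17789 falls (27.9%), where 22.7% of all eligible nucleosomes had it. The summit had not moved in 8.43% of rises, 8.67% of falls and 12.2% of the others. Of the moved summits, 31647 in rises went towards higher coordinates and 31491 towards lower ones, and in falls 29049 and 29129. The share displaced by at least 50 bp went up with the size of the change, from 25.7% at 8 to 12 units to 33.5% above 16 units in rises and from 27.1% to 34.7% in falls. Still, 28.7% of rises and 28.6% of falls had summits at most 10 bp apart, against 36.9% of the others. In these nearly stationary members the median log2 occupancy ratio was -0.43 in rises and 0.43 in falls, so the occupancy difference was no smaller where the summit had stayed in place.

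**Figure D3:**
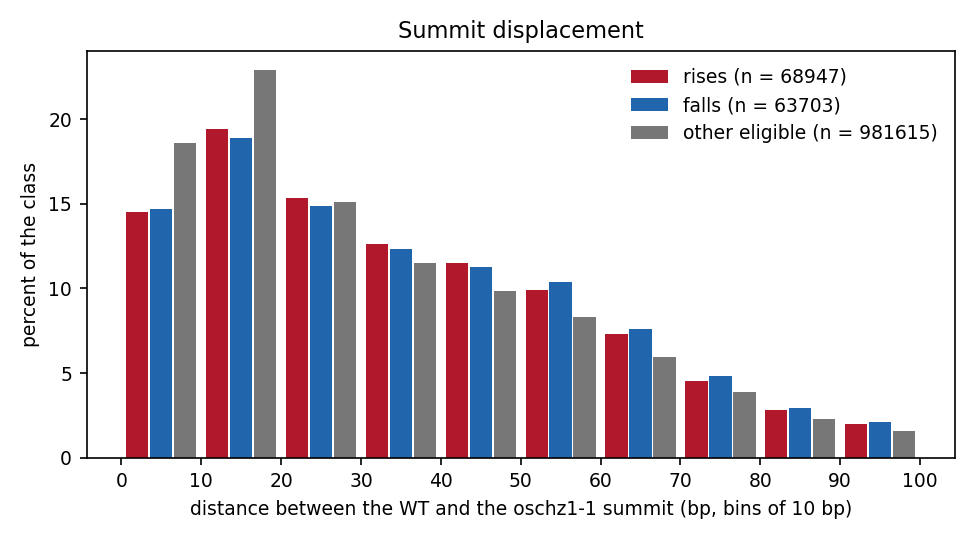
Distance between the WT and the *oschz1-1* summit (x axis, bins of 10 bp) as percent of rises, falls and other eligible nucleosomes (y axis). The bars of members are lower than those of the others under 20 bp and higher from 30 bp on, and the bars of rises and falls are nearly equal.

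Displacement also depended on where a nucleosome began. In the lowest quartile of WT fuzziness (up to 49.1), 22.1% of rises were displaced by at least 50 bp, against 7.37% of the others and 4.53% of falls. In the highest quartile (from 56.0), the shares were 32.7% in the 594 rises, 32.2% in the others and 36.1% in falls. In the second quartile they were 38.0%, 19.9% and 9.81%, and in the third 38.7%, 27.7% and 20.9%, in the same order. At a like WT score, rises were thus displaced more often than the others in the 3 lower quartiles and falls less often, and in the highest quartile falls had the highest share. By mean occupancy, members were displaced more often than the others in each quartile. The shares were 30.7% of rises, 31.5% of falls and 27.6% of the others in the lowest quartile (up to 14.6), and 19.1%, 21.7% and 14.8% in the highest (from 20.95).

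Next to a rise, a nucleosome listed in *oschz1-1* alone was common, and next to a fall, a nucleosome listed in WT alone. Counting the next listed nucleosome on either side, 23.7% of the neighbours of rises had a summit in *oschz1-1* alone and 10.6% in WT alone. For falls the shares were 11.2% and 24.3%, and for the other eligible nucleosomes 17.5% and 17.0%. At least 1 neighbour listed in *oschz1-1* alone stood beside 28948 rises (42.0%), 20.99% of falls and 32.1% of the others. At least 1 neighbour listed in WT alone stood beside 27288 falls (42.8%), 19.9% of rises and 31.2% of the others. The contrast ended at the nearest neighbour. At the second nucleosome on the higher side, 16.3% of those beyond rises and 17.1% of those beyond falls were listed in *oschz1-1* alone, against 16.8% for the others.

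**Figure D4:**
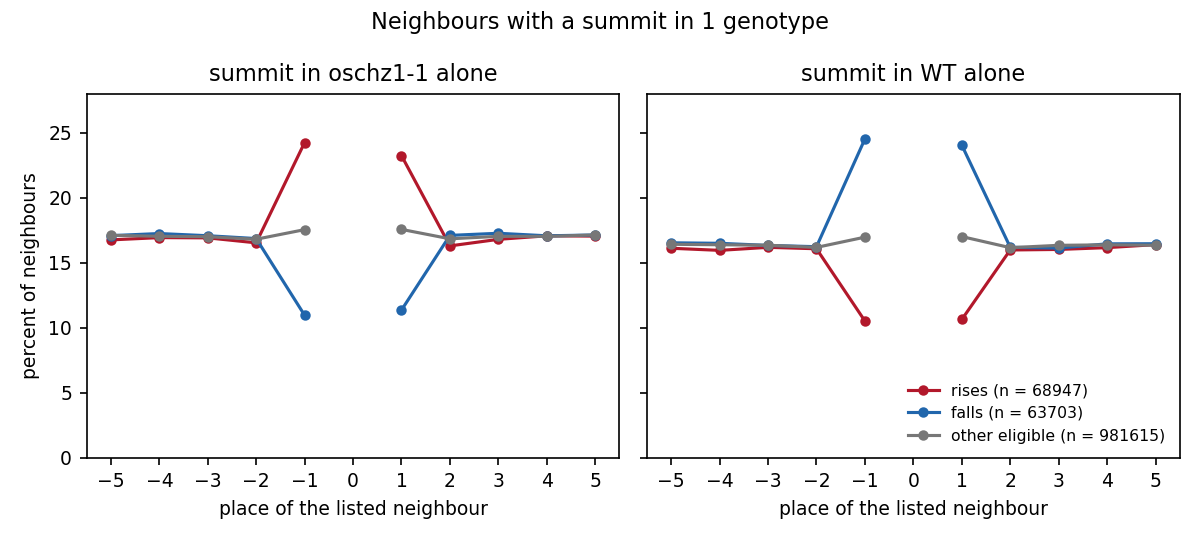
Percent of listed neighbours (y axis) with a summit in *oschz1-1* alone (left) or in WT alone (right), by their place from 5 before to 5 after the nucleosome (x axis), for rises, falls and other eligible nucleosomes. Rises and falls part at the adjacent places, where neighbours listed in *oschz1-1* alone are 24.2% and 23.2% for rises and 10.96% and 11.4% for falls, and lie together from the second place on.

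Read from the side of the neighbours, the same pattern was graded. Of the 484173 eligible nucleosomes whose adjacent neighbours were both shared, 6.19% were rises and 5.51% were falls. With a neighbour in *oschz1-1* alone on 1 side and a shared one on the other, 8.64% were rises and 3.58% falls, and with such neighbours on both sides 10.9% and 2.44%. With a neighbour in WT alone on 1 side and a shared one on the other, 3.81% were rises and 8.28% falls, and on both sides 2.62% and 11.5%. Where the sides held 1 of each kind, the shares were 5.03% and 4.92%. Shared neighbours on both sides were found for 29976 rises (43.5%), 26687 falls (41.9%) and 43.6% of the others, so that the classes hardly differed in this share. The occupancy difference of members hardly varied with them. The median log2 ratio was -0.40, -0.41 and -0.38 in rises with 0, 1 and 2 neighbours in *oschz1-1* alone, and 0.39, 0.41 and 0.40 in falls with 0, 1 and 2 neighbours in WT alone.

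The neighbours of 1 genotype lay close by and had signal in the other genotype as well. Those in *oschz1-1* alone beside rises had a median occupancy of 6.99 in WT and 14.6 in *oschz1-1*, and lay a median of 150 bp from the WT summit of the rise. Those in WT alone beside falls had 14.9 in WT and 6.99 in *oschz1-1*, at a median of 145 bp. The middle 50% of these distances ran from 110 to 200 bp for rises and from 120 to 200 bp for falls. They join a summit of the WT map with the place listed for the neighbour, which for rises is a summit of the other map. Where a rise had a neighbour in *oschz1-1* alone on a single side, its summit had moved away from it in 15472 cases and towards it in 7606, or 67.0% away among those that moved. This was also seen in the other eligible nucleosomes with such a neighbour, where 63.6% of the moved summits went away. Falls with a neighbour in WT alone on a single side moved towards its place in 14586 cases and away in 7000, so that 32.4% went away, against 35.9% in the others. These directions are partly fixed, since summits of the same map lay at least 100 bp apart. A neighbour in *oschz1-1* alone that was listed closer than this to the WT summit could only stand beside a summit moved away. How much of the directions came from this limit was not tested.

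The spacing of summits is partly tied to these neighbours, since a summit listed in 1 genotype counts in the spacing of that map only. In the WT map, the nearer of the next summits lay a median of 185 bp from rises, 145 bp from falls and 170 bp from the others. In the *oschz1-1* map the order was exchanged, with 145 bp for rises, 185 bp for falls and 170 bp for the others. The nearer distance was smaller in *oschz1-1* than in WT in 74.2% of rises, 22.5% of falls and 47.6% of the others. Where no neighbour was listed in *oschz1-1* alone, it was smaller in *oschz1-1* in 63.7% of rises and 35.6% of the others. Where no neighbour was listed in WT alone, it was larger in *oschz1-1* in 62.2% of falls and 34.9% of the others. A next summit less than 150 bp away was present in WT for 13.4% of rises and 51.5% of falls, and in *oschz1-1* for 50.9% of rises and 14.9% of falls. Members were thus more widely spaced in the genotype in which they were sharper. The farther of the next summits showed the same order, at 275 bp in WT and 245 bp in *oschz1-1* for rises and at 240 bp and 275 bp for falls. In either map no summit of a member lay less than 100 bp from the next, the smallest distance in the table. At a like WT score, the WT spacing of members was close to that of the others. In the lowest quartile of WT fuzziness, the median nearer WT distance was 190 bp in rises, 180 bp in falls and 190 bp in the others. In the highest quartile it was 140, 130 and 140 bp. The nearer *oschz1-1* distance did differ, at 155, 195 and 185 bp in the lowest quartile and 110, 180 and 150 bp in the highest.

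**Figure D5:**
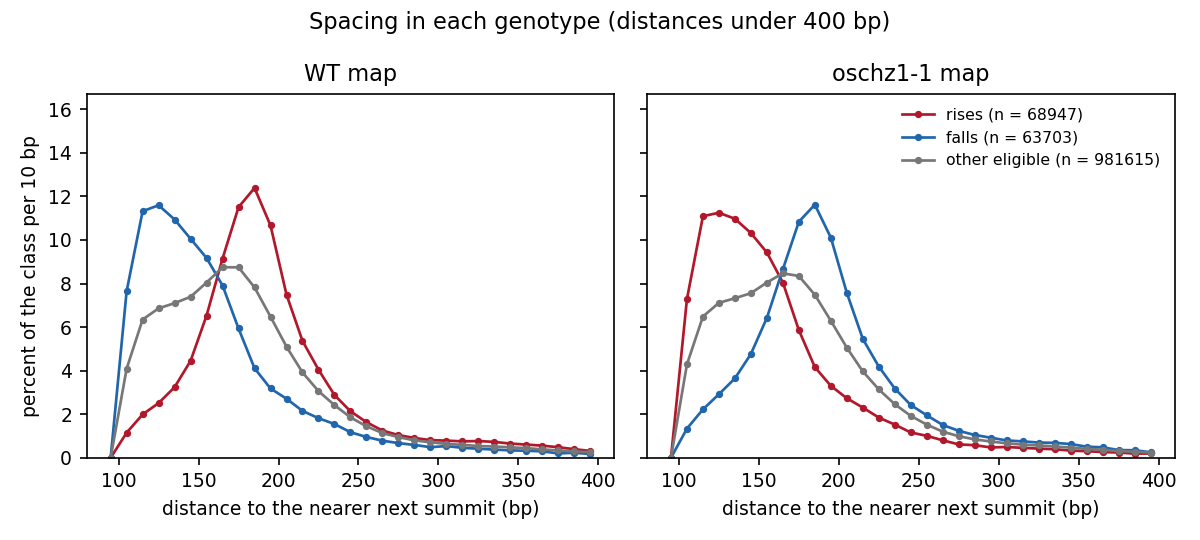
Distance from a summit to the nearer next summit of the same map (x axis, bins of 10 bp, distances under 400 bp) as percent of rises, falls and other eligible nucleosomes (y axis), in WT (left) and *oschz1-1* (right). In WT the curve of rises peaks near its median of 185 bp while that of falls lies mostly below 150 bp, and in *oschz1-1* the curves change places.

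By WT spacing, the share of rises was highest at 190 to 210 bp, and that of falls at the shortest distances. Of the eligible nucleosomes whose nearer WT summit lay less than 130 bp away, 2.02% were rises and 10.1% were falls. At 150 to 170 bp the shares were equal, 5.79% and 5.83%. At 190 to 210 bp, 9.63% were rises and 2.89% were falls, and from 250 bp on 7.49% and 4.17%. The same order held when the spacing was read from the *oschz1-1* map, with the directions exchanged. There, 10.2% were rises and 2.06% falls below 130 bp, and 3.28% and 8.88% at 190 to 210 bp.

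Members of like direction stood beside each other more often than members of opposite direction. A next neighbour was itself a rise on 6.90% of the sides of rises and a fall on 2.93% of them. For falls, 5.82% of the sides held a fall and 3.17% a rise. Beside the other eligible nucleosomes, the neighbour after it was a rise in 3.89% and a fall in 3.596%. Adjacent summits can be read from overlapping fragments, and the part of this in the likeness of neighbours was not tested. Among eligible next neighbours on the higher side, the median change of fuzziness was 1.12 beside rises, -0.83 beside falls and 0.09 beside the others. At the third neighbour it was 0.16, 0.09 and 0.09. Most members had no adjacent member of like direction, though some of these stood beside a member of the opposite direction. Of the rises, 59792 had no rise as a neighbour, and there were 4064 pairs, 317 runs of 3 and 19 runs of 4. Of the falls, 56529 had no fall as a neighbour, with 3246 pairs, 200 runs of 3, 18 runs of 4 and 2 runs of 5.

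Of the runs of 5 falls, that of higher mean occupancy was on chromosome 10, with 5 WT summits from 5804931 to 5805581. Its WT fuzziness was 65.7, 58.3, 58.6, 57.4 and 62.0 along the run, and its *oschz1-1* fuzziness was 40.9, 48.7, 41.7, 39.96 and 35.4. All 5 were fuzzier than the median in WT and sharper than the median in *oschz1-1*. Occupancy was higher in *oschz1-1* in 3 of them, at 13.4 and 17.8, 16.2 and 20.4, and 12.5 and 25.8, and lower in the second (17.8 and 11.7) and the fourth (25.9 and 23.5). The nucleosomes bounding the run on both sides were listed in WT alone, at 5804821 with an occupancy of 22.6 in WT and 1.75 in *oschz1-1*, and at 5805791 with 24.8 and 1.73. Within the run, successive WT summits were 120, 140, 200 and 190 bp apart, and successive *oschz1-1* summits 145, 165, 170 and 165 bp. The spacing was thus more even in *oschz1-1*. The matching run of rises, on chromosome 5 with 4 WT summits from 20098131 to 20098671, went from 45.9 to 54.7, 35.2 to 43.6, 35.5 to 50.6 and 38.4 to 50.4. Its bounding neighbours were shared, and its occupancies of 24.9, 46.4, 25.9 and 29.1 in WT were 24.6, 37.8, 23.4 and 22.5 in *oschz1-1*. All 4 values were the lower in *oschz1-1*, the first by a small margin.

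The 5 largest rises were single nucleosomes in different settings. On chromosome 11, a summit at 6640921 in WT and 6640991 in *oschz1-1* had a fuzziness of 32.8 and 62.0 and an occupancy of 11.7 and 12.4. On chromosome 8, a summit at 14538251, with the *oschz1-1* summit 40 bp lower, went from 32.9 to 62.0 as its occupancy went from 30.4 to 10.3. On chromosome 9, a summit at 14149591 went from 41.1 to 69.6 and from an occupancy of 31.0 to 10.9. The *oschz1-1* score of the last was close to 71.8, the highest of any rise. On chromosome 6, a summit at 11824304 had the lowest WT score of all rises, 27.7, and 55.9 in *oschz1-1*, with an occupancy of 16.9 and 13.1. On chromosome 11, a summit at 4927526 went from 31.0 to 59.1 with an occupancy of 11.4 and 12.7. Both nucleosomes of chromosome 11 had adjacent neighbours with a WT occupancy of 0. That neighbour was at 6640821 for the former (20.6 in *oschz1-1*), and at 4927371 and 4927701 for the latter (12.6 and 23.5). Their occupancy was not lower in *oschz1-1*, unlike that of the other 3.

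The 5 largest falls began with WT scores between 60.8 and 65.3. On chromosome 1, a summit at 18730966 went from 60.8 to 30.8, the largest change of all members at -29.98, with an occupancy of 12.1 in WT and 11.7 in *oschz1-1*. A second fall of chromosome 1, at 29011331, went from 62.3 to 32.5 with occupancies of 15.8 and 14.0. On chromosome 3, a summit at 29004271 went from 63.3 to 33.7 while its occupancy went from 13.2 to 31.0. Occupancy was thus clearly higher in *oschz1-1* only in the last of these 3. On chromosome 8, a summit at 23987756 went from 65.3 to 36.7 (occupancy 10.5 and 14.4) and its summit moved by 85 bp. On chromosome 2, a summit at 15422741 went from 64.1 to 36.5 (occupancy 12.1 and 13.1), beside a nucleosome at 15422581 listed in WT alone whose occupancy was 29.1 in WT and 6.92 in *oschz1-1*. A neighbour listed in WT alone also stood beside the fall at 29011331 and the fall at 23987756, and the others of the 5 had shared neighbours on both sides.

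Large changes also occurred at stationary nucleosomes of high occupancy. There were 2291 rises and 2065 falls with summits at most 10 bp apart and an occupancy of at least 20 in both genotypes. The eligible nucleosomes that met these conditions were not counted, so no share can be set beside these counts. In the highest decile of mean occupancy, 4.42% of the eligible nucleosomes were rises and 3.90% were falls, the smallest shares of any decile. The largest such rise was on chromosome 4 at 954431, from 34.7 to 53.6, with an occupancy of 36.5 in WT and 20.6 in *oschz1-1*. In WT its nearer summit was 400 bp away, and in *oschz1-1* a nucleosome listed in that genotype alone stood on either side, at 954241 and 954606, leaving 180 and 185 bp. A nucleosome that stood apart in WT thus had regularly spaced neighbours in *oschz1-1*, with occupancies of 15.5 and 12.7 against 6.42 and 2.102 in WT. The next were on chromosome 2 at 23906311, from 37.0 to 55.7, and on chromosome 3 at 28976806, from 39.4 to 57.7, each with a neighbour listed in *oschz1-1* alone on its higher side. The largest such falls were on chromosome 7 at 4065461, from 58.4 to 38.3, on chromosome 2 at 26391211, from 54.3 to 36.2, and on chromosome 1 at 18761661, from 53.9 to 35.9. In the last, a neighbour 110 bp away in WT had an occupancy of 11.02 in WT and 3.05 in *oschz1-1*, and the nearer *oschz1-1* summit was 403 bp away. The fall of chromosome 7 had a neighbour listed in *oschz1-1* alone instead, with an occupancy of 13.5 in WT and 14.7 in *oschz1-1*, so that not every named member followed the common pattern.

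Rises and falls were spread evenly over the chromosomes. The share of eligible nucleosomes that were rises lay between 5.97% on chromosome 4 and 6.43% on chromosome 7, and that of falls between 5.51% on chromosome 4 and 5.87% on chromosome 3. Rises outnumbered falls on all 12, by a ratio of 1.04 on chromosome 3 to 1.14 on chromosome 11. The measures taken by chromosome varied little. The median log2 occupancy ratio ranged from -0.42 to -0.38 in rises and from 0.38 to 0.42 in falls. Neighbours listed in *oschz1-1* alone took 22.8% to 24.8% of the sides of rises, and neighbours listed in WT alone 22.9% to 25.2% of the sides of falls. The largest rise of a chromosome was between 24.7 and 29.2 units, and the largest fall between 22.9 and 29.98 in size. In 375 bins of 1000000 bp with at least 1000 eligible nucleosomes, the median share of rises was 6.18% (4.66% to 8.53%) and that of falls 5.70% (4.65% to 7.36%).

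The highest shares of rises were in the bin from 10000001 on chromosome 10 (216 of 2533) and in the bin from 5000001 on chromosome 11 (184 of 2344, or 7.85%). Chromosomes 10 and 11 also hold 7 intervals in which runs of nucleosomes of the *oschz1-1* map had no WT signal. Of the 999 eligible nucleosomes within 10000 bp of these intervals, 147 were rises (14.7%) and 44 were falls (4.40%), against 6.18% and 5.72% elsewhere. In the interval of chromosome 11 from 4908791 to 5347071, 96 of 680 eligible nucleosomes were rises. The intervals also include sequence between the runs, where the eligible nucleosomes lay. The 722 eligible nucleosomes inside the intervals had a median occupancy of 17.2 in WT and 17.1 in *oschz1-1*. Their WT occupancy could not be low, since the rule asks for at least 10. Of the 22 rises of at least 25 units, 3 lay near these intervals, among them both rises of chromosome 11 named above. Without the nucleosomes near the intervals, the share of rises in the bin of chromosome 11 was 5.93%, and that in the bin of chromosome 10 was still 8.48%. What the missing WT signal contributed to these rises was not tested.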

How the data were processed

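Per the paper's methods, the authors aligned cleaned read pairs of formaldehyde-fixed MNase-digested chromatin to the Nipponbare reference (MSU7) with Bowtie2, filtered alignments by quality and for likely PCR duplicates with Samtools, and positioned nucleosomes with DANPOS, whose options are not stated. The deposited table gives, for each genotype after merging its libraries, the occupancy as a signal scaled by the authors and the fuzziness as a score made by the authors with DANPOS. The control columns were taken as WT and the treated columns as *oschz1-1*. Coordinates are those of the table (MSU7). The authors' p-value and FDR columns were not used, nor were the point values, and 0 columns of values were left unmapped.

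Nucleosomes were ordered by WT summit, or by *oschz1-1* summit where WT had none, and neighbours were the next listed nucleosomes. Runs without WT signal held at least 5 nucleosomes in a row with a WT occupancy under 1 and an *oschz1-1* occupancy of at least 5. Runs under 100000 bp apart were joined into intervals, which include the sequence between them. The members, lists and settings were chosen with earlier results of these data known. Nucleosomes named were the 5 largest changes, the 3 largest among stationary nucleosomes (summits at most 10 bp apart) of occupancy at least 20, the 3 on either side of the limit, and the longest run, in each direction, with ties going to the higher mean occupancy.

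Sequences and genes are not analysed here, since the MSU7 genome and annotation were not used. The counting functions were tested on simulated data of 40000 nucleosomes and recovered all 8 quantities put in. Python 3.11.15, numpy 2.4.6, pandas 2.3.3, scipy 1.17.1 and matplotlib 3.10.9 were used.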

Additional observations from a re-analysis of the deposited data

How the results depend on the processing

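No paired analysis was possible because each genotype had a single merged value, which also prevents leaving out a replicate. Shares and medians were taken to have moved when they left the 95% binomial interval (order statistics for medians) of the main value, which is narrow for so many nucleosomes and covers counting error only. Counts and ratios were taken to have moved when they differed by more than 1.5 times. By these rules 55 values moved and 25 stayed the same. Only the median log2 occupancy ratio was checked for a reversed sign, and it kept its sign wherever it was taken again. It was not taken again with limits of 6 and 12 units. With a limit of 6 units there were 135904 rises and 127667 falls, and with 12 units 13516 and 12039. With an occupancy minimum of 20 there were 6496 and 5785. Both counts stayed within 1.5 times the main ones with a minimum of 5, with all sequences and with a log2 ratio of fuzziness in place of the difference. They also did so without the nucleosomes near the intervals that hold runs lacking WT signal, a setting chosen after seeing the data.

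For limits of 6 and 12, the median WT fuzziness was 47.9 and 43.7 in rises and 56.8 and 58.1 in falls, and the share displaced by at least 50 bp was 25.2% and 30.3% in rises and 25.9% and 31.7% in falls. The share of rises with a neighbour in *oschz1-1* alone was 40.7% and 42.7%, that of falls with a neighbour in WT alone 41.2% and 44.9%, that of rises beside a rise 20.7% and 4.51%, and that of falls beside a fall 18.6% and 3.597%. The median nearer distance of rises was 180 bp in WT with a limit of 6, and 150 and 140 bp in *oschz1-1*. That of falls was 150 and 140 bp in WT and 180 and 190 bp in *oschz1-1*.

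With an occupancy minimum of 20, the median WT fuzziness was 43.3 in rises and 54.0 in falls, the displaced share 17.1% and 18.4%, and the median log2 ratio -0.21 and 0.21. The share with a neighbour of 1 genotype was 30.9% and 34.6%, that beside a member of like direction 5.17% and 3.16%, and the median nearer distance 180 bp in WT and 150 bp in *oschz1-1* for rises and 150 and 180 bp for falls. There were fewer members at this minimum, and what that contributed to the lower share of like neighbours was not tested.

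A displacement of at least 40 bp was found in 38.1% of rises and 39.2% of falls, and of at least 70 bp in 9.36% and 9.93%. The median log2 ratio was -0.42 and 0.42 with a pseudocount of 0.1, -0.43 and 0.42 with none, and -0.43 and 0.43 for summits at most 10 bp apart. Neighbours of 1 genotype within 250 bp stood beside 38.2% of rises and 39.4% of falls. Ratios of the highest to the lowest chromosome share stayed within 1.5 times the main value. The alternative for sequence windows was not run for want of the MSU7 genome. Depth, which is unknown, limits every single value.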

Other observations

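Members were found at all levels of occupancy. By decile of mean occupancy over the genotypes, rises made up 6.86% of the eligible nucleosomes in the lowest decile (up to 12.8) and 4.42% in the highest (from 24.8), and falls 6.24% and 3.90%. The shares changed little over the lower deciles and were smallest in the highest in both classes.

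Summits lay on a grid of 10 bp less often where a member was sharp. In WT, 81.6% of the summits of rises and 87.4% of those of falls were on this grid, against 87.4% in the other eligible nucleosomes. In *oschz1-1* the shares were 86.4% for rises, 81.4% for falls and 86.8% for the others. Sharp nucleosomes that were not members shared much of this. In the lowest quartile of WT fuzziness, 82.6% of the others were on the grid in WT, beside 79.0% of rises and 81.1% of falls.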
